A study of Mus musculus with 8 samples.

Results

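The EphA receptors are the larger of both classes of Eph receptor tyrosine kinases, and their genes were examined here for open chromatin in mouse retinal ganglion cells (RGCs), the neurons whose axons form the optic nerve. The members were the 9 genes Epha1, Epha2, Epha3, Epha4, Epha5, Epha6, Epha7, Epha8 and Epha10, of 21883 protein-coding genes of the RefSeq annotation of the mouse build GRCm38. A peak belonged to a gene when it overlapped the gene or the 10 kb on either side of it. Overlapping peaks of the 8 lists, by 1 bp or more, were joined to regions, of which 161 out of 189914 lay at these 9 genes.

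All samples came from adult C57BL/6J mice whose eye had received AAV2, a virus that reaches many but not all RGCs, and whose optic nerve was crushed 2 weeks later. RGCs were enriched 3 days after the crush from dissociated retina by sorting of cells that carried the surface protein CD90.2 (Thy1), and 50000 cells entered each ATAC-seq library, in which a transposase cuts and tags accessible DNA. The virus carried GFP as control (3 samples), Ezh2, the methyltransferase that places the repressive mark H3K27me3 (3 samples), or Ezh2-Y726D, a form of Ezh2 without catalytic activity (2 samples). Injury, strain and sort were therefore shared by all 3 groups, no uncrushed sample was analysed here, and neither the labels nor the methods say whether animals were pooled.

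Eph receptors bind ephrins on the surface of neighbouring cells, and EphA receptors mainly bind the membrane-anchored ephrin-A ligands. Binding clusters the receptors, and their kinase domain and the guanine nucleotide exchange factors behind it change the actin cytoskeleton so that a growth cone collapses or turns away. In the visual system, graded EphA receptors on RGC axons and graded ephrin-As in the target place nasal and temporal axons at their positions along the map. After injury, ephrins in the surroundings of a lesion can act on the same receptors, for which Eph signalling counts among the inhibitors of axon regrowth.

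The 8 deposited peak lists held between 112939 and 135895 peaks, with GFP replicates 1 and 2 at the short end, and held no reads, from which follows that their depth is unknown. Because of this, a peak's fold enrichment over the local background was read only as its percentile within its own list. Of 10 RGC marker genes, 9 or 10 had a peak in every list. The 10 markers each of rods, Müller glia, amacrine, bipolar and endothelial cells also had peaks, at 9 or 10 genes per list, so the lists describe the sorted mixture and a peak does not name the cell it came from. The groups differed in immune cell markers: the 10 microglia and macrophage genes held 18 to 24 peaks in GFP, 24 to 28 in Ezh2 and 7 to 9 in Ezh2-Y726D lists, and the 10 T cell genes held 16 to 23, 26 to 27 and 8. Both Ezh2-Y726D lists had no peak at Itgam, Aif1, C1qa, C1qb, Tmem119, Trem2, Cd3g, Cd8a, Cd8b1 and Lat, which are among the defining genes of those cells. Of these, C1qa also had none in GFP replicates 1 and 2 and Ezh2 replicate 2, and Tmem119 and Trem2 had none in GFP replicate 2. In contrast, Cx3cr1, P2ry12, Csf1r, Cd3e, Cd3d, Cd4, Lck and Zap70 had peaks in every list. Rod markers held 37 to 39 peaks in GFP, 31 to 32 in Ezh2 and 26 to 33 in Ezh2-Y726D lists. The part of these differences in cell makeup in the EphA results was not tested, and in such bulk samples fewer cells of a type and less accessible chromatin per cell cannot be told apart.

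Promoters of all 9 genes were present in the RefSeq promoter set for GRCm38.p6, which covers 250 bases before and 50 after each start site. The promoters of Epha1 and Epha8 are shown because the peaks over them differed between groups, that of Epha3 because its peak ranked highest, and that of Epha6 because its peak had its summit outside it. Each reads 5′ to 3′ on the gene's strand, with matches to the GC box GGGCGG, a binding site of Sp family factors, in capitals on either strand.
Epha1, chr6:42373219-42373518, minus strand: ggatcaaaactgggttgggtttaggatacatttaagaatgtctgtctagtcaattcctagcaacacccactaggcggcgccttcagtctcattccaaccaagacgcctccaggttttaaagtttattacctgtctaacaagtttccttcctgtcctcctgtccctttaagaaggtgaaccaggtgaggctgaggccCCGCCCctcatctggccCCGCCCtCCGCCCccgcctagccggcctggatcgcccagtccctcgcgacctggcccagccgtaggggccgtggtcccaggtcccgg
Epha8, chr4:136956767-136957066, minus strand: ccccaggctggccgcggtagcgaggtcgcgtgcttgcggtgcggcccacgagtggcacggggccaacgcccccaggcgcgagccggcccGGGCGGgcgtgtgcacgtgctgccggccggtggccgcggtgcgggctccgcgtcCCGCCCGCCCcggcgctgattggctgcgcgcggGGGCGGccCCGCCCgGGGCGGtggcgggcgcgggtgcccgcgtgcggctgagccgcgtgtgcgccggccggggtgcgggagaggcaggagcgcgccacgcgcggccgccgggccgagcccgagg
Epha3, chr16:63864126-63864425, minus strand: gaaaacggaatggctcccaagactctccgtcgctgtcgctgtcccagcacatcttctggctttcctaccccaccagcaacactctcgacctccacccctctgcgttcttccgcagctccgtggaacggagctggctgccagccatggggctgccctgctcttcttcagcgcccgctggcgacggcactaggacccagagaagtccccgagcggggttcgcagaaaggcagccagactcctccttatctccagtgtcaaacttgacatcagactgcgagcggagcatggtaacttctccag
Epha6, chr16:60605482-60605781, minus strand: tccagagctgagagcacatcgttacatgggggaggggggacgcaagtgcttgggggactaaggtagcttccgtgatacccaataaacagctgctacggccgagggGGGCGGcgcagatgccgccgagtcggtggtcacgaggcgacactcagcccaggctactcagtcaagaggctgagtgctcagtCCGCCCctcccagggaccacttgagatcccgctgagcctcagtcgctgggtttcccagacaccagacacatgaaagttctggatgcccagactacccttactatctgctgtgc

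The Epha8 promoter stood apart in base composition. It held 56 CG dinucleotides, more than 99.8% of the 32817 promoters of the same length, whose median was 7, and 6 GC boxes, some of which overlap. Epha1 held 14 CG dinucleotides and 3 GC boxes close to its start site, Epha6 15 and 2, and Epha3 18 and 0. The remaining genes ranged from 10 CG dinucleotides in Epha2 to 30 in Epha5, and each had 1 or 2 GC boxes. A GC box was present in 35.63% of all promoters. The AP-1 motif TGANTCA, searched on both strands, occurred in 7.813% of all promoters and in none of the 9 EphA promoters, which says only that these letters are not in this window.

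A peak covered the annotated start site of all 9 genes in all 8 lists, so no group lacked an open EphA promoter. By mean percentile over the lists, the order was Epha3 at 89.7, Epha10 at 88.1, Epha6 at 76.8, Epha7 at 69.4, Epha5 at 67.5, Epha2 at 54.4, Epha8 at 49.5, Epha4 at 47.8 and Epha1 at 39.4. Over the lists Epha10, at 83.6 to 93.9, did not overlap the next gene, Epha6, at 69.6 to 81.8, whereas all other neighbours in this order overlapped. Epha4, the receptor that binds both ephrin classes, spanned 40.7 to 54.3, and Epha1, the founding member of the family, 11.2 to 60.5. Summits lay between -166 and 255 bp from the start site in 8 genes, with negative values upstream. Epha6 was the exception, with summits between -972 and -876 bp in all 8 lists. The annotated gene reaches further upstream, to chr16:60610911, so these summits lie inside it. The Epha6 region also reached the annotated long non-coding gene Gm9017, the Epha1 region lay within 2010310C07Rik, the Epha5 region held the start site of Gm42163, and the Epha10 region overlapped the end of Maneal. ATAC-seq does not tell strands apart, so peaks at such shared positions belong to either gene.

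**Figure D1:**
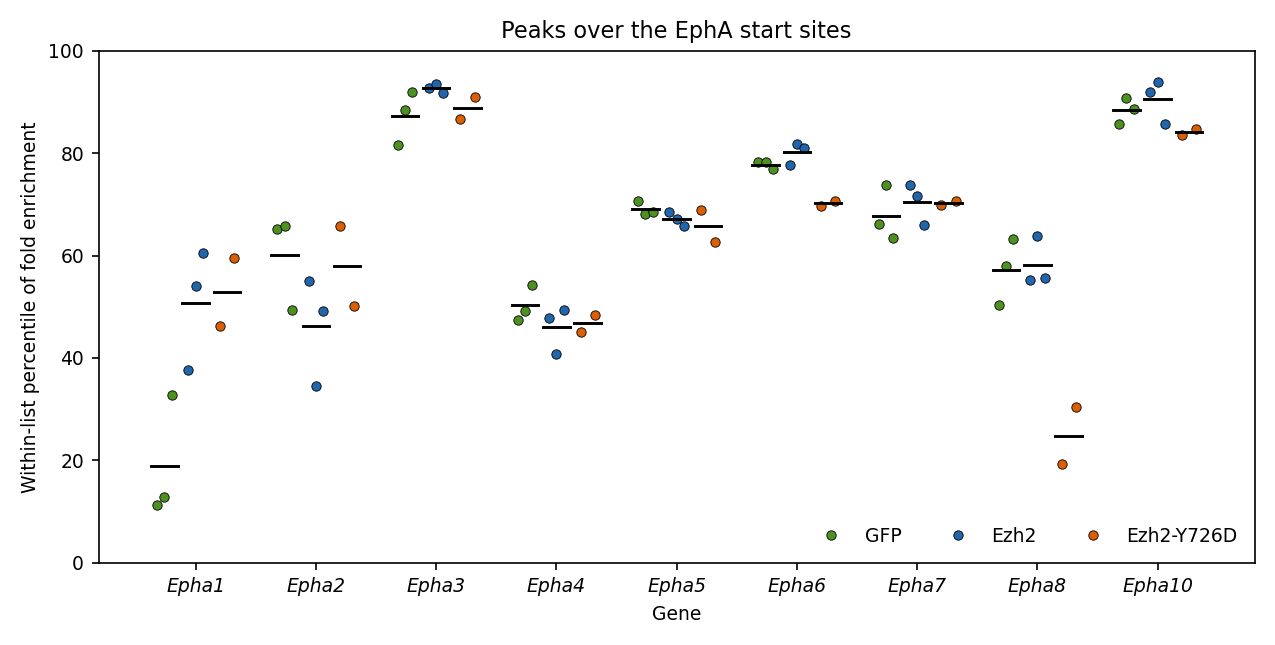
Within-list percentile of fold enrichment (y axis, 0 to 100) of the peak over the start site of each EphA gene (x axis); each point is 1 list, coloured by group, and black bars are group means. Epha1 is low in the 3 GFP lists, at 11.2 to 32.8, and Epha8 is low in both Ezh2-Y726D lists, at 19.2 and 30.5. At Epha6 both Ezh2-Y726D lists, at 69.6 and 70.7, also lie below the other lists, at 76.8 to 81.8, and this region was not called.

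Accessibility differed between groups at the start sites of Epha1 and Epha8. At the Epha6 start site the Ezh2-Y726D lists were also lowest, but the difference did not pass the test against GFP (-0.34 z units, SE 0.17, adjusted p = 0.2495) or Ezh2 (adjusted p = 0.126), in the limma fit given next. The region over the Epha1 start site, chr6:42372860-42373592, had folds of 3.2, 3.47 and 4.0 in the GFP lists, 4.39, 5.01 and 5.22 in the Ezh2 lists and 4.92 and 5.59 in the Ezh2-Y726D lists. Its percentiles were 11.2, 12.9 and 32.8 with GFP, 37.7, 54.0 and 60.5 with Ezh2 and 46.3 and 59.5 with Ezh2-Y726D. All 5 lists with either Ezh2 form lay above all 3 GFP lists. In limma fitted to the normal scores of the ranks (z units) over 69493 regions with a peak in every list, the region was higher than GFP by 0.93 (SE 0.21, adjusted p = 0.0362) in Ezh2 and by 0.97 (SE 0.23, adjusted p = 0.0323) in Ezh2-Y726D. Both comparisons share the GFP lists. The difference between both Ezh2 forms was -0.04 (SE 0.23, adjusted p = 0.931). Against GFP the Ezh2 call ended without GFP replicate 1 (0.106) or 2 (0.12), Ezh2 replicate 2 (0.0832) or 3 (0.104), or Ezh2-Y726D replicate 1 (0.0507) or 2 (0.0513), and the Ezh2-Y726D call without GFP replicate 1 (0.0927) or 2 (0.0951), or Ezh2-Y726D replicate 1 (0.0899) or 2 (0.178), each value an adjusted p. Both calls also ended with regions present in at least 6 lists (0.0525 and 0.0635), and the Ezh2 call with 2 groups in the fit (0.0501) or with peaks required to fill 0.5 or more of their region (0.0567).

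At the start site of Epha8, chr4:136956113-136957394, the folds were 4.72, 5.56 and 5.6 with GFP, 5.23, 5.66 and 4.82 with Ezh2 and 3.7 and 4.09 with Ezh2-Y726D. The percentiles were 50.4, 58.0 and 63.2 with GFP, 55.3, 63.8 and 55.6 with Ezh2 and 19.2 and 30.5 with Ezh2-Y726D. Both Ezh2-Y726D lists lay below all other lists, and GFP and Ezh2 overlapped. Ezh2-Y726D was lower than GFP by -0.92 (SE 0.19, adjusted p = 0.0205), and Ezh2 was higher than Ezh2-Y726D by 0.92 (SE 0.19, adjusted p = 0.0127). Ezh2 and GFP differed by 0.00 (SE 0.17, adjusted p = 0.995). A further region inside Epha8, chr4:136942429-136943439, centred 14 kb from the start site, had percentiles of 70.9, 65.2 and 61.0 with GFP, 62.5, 63.9 and 73.2 with Ezh2 and 34.1 and 40.5 with Ezh2-Y726D. Again both Ezh2-Y726D lists were lowest, by -0.86 against GFP (SE 0.20, adjusted p = 0.0294) and with Ezh2 higher by 0.87 (SE 0.20, adjusted p = 0.0191). The start site call against GFP ended without GFP replicate 2 (adjusted p = 0.0524) or Ezh2-Y726D replicate 1 (0.169) or 2 (0.0661), and that against Ezh2 without Ezh2-Y726D replicate 1 (0.127). The call inside the gene ended without GFP replicate 1 (0.075) or 2 (0.0682) against GFP, without Ezh2 replicate 3 (0.0522) against Ezh2, and in both comparisons without Ezh2-Y726D replicate 1 (0.186 and 0.139) or 2 (0.118 and 0.0869).

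Over the whole family, 55 of 161 EphA regions (34.16%) had a peak in all 8 lists, against 36.59% of all regions, and 34 (21.12%) had one in a single list, against 17.23%. By position, 9 regions held a start site, 136 lay elsewhere in a gene body and 16 in a flank. Regions found in every list were wider, with a median of 955 bp against 239.5 bp for regions of a single list, and ranked higher, with a median percentile of 61.1 against 9.79. A region spans all peaks joined in it, so part of the difference in width follows by construction. A region in every list also had to pass the peak threshold in every library, so part of the difference in rank does too. EphA regions of a single list were most frequent in GFP replicate 3 (8 regions) and absent in Ezh2 replicate 2. Peak density was highest in the shortest genes but did not follow length throughout. Averaged over lists, Epha8 (27.44 kb), Epha1 (14.83 kb) and Epha2 (28.16 kb) held 19.5, 14.4 and 13.8 peaks per 100 kb of window, whereas Epha6 (969.5 kb), Epha3 (320.6 kb) and Epha5 (363.1 kb) held 2.44, 2.86 and 4.57. Epha10 (36.27 kb) held 6.44, fewer than Epha4 (147.9 kb) with 9.68. A flank region of Epha1 lay over the start site of the neighbouring gene Zyx. The median over protein-coding genes was 7.13, and over those of at least 100 kb 6.79.

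Summed over the 9 genes, the GFP lists held 92, 97 and 114 peaks, the Ezh2 lists 98, 95 and 106, and the Ezh2-Y726D lists 117 and 107. The means were 101 ± 11.5 (SD, n = 3), 99.7 ± 5.69 (n = 3) and 112 ± 7.07 (n = 2). GFP overlapped both other groups, and every Ezh2 list lay below both Ezh2-Y726D lists. Scaled to list length, as in the fits, the sums were 99.9, 107.9 and 107.2 with GFP, 97.5, 93.6 and 98.0 with Ezh2 and 118 and 104.5 with Ezh2-Y726D. Every Ezh2 list then lay below every other list, and the difference of means between Ezh2 and GFP went from -1.33 to -8.62 peaks. The sum over members was not tested. Single genes were tested, with calls at Epha5, Epha6 and Epha2, and these are given below beside the share of all genes called.

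**Figure D2:**
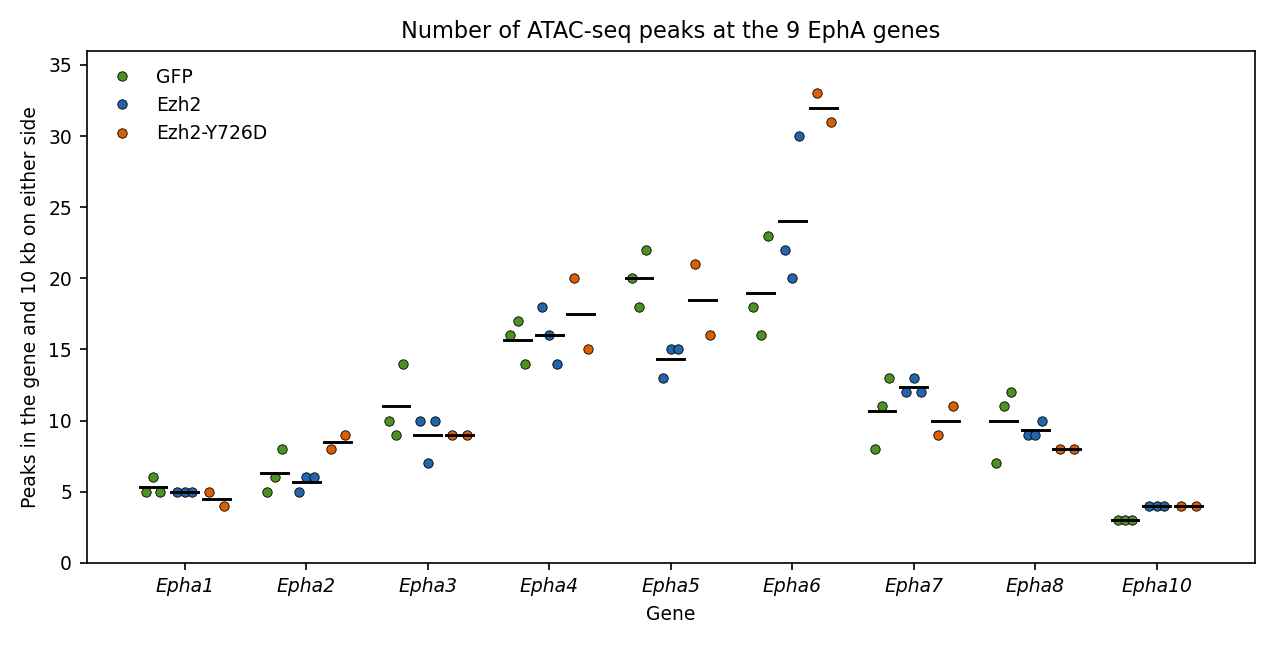
Number of peaks in each EphA gene and the 10 kb on either side (y axis) by gene (x axis); each point is 1 list before scaling to list length, coloured by group, and black bars are group means. Epha6 is highest in the Ezh2-Y726D lists, with 33 and 31 peaks against 16 to 23 in GFP, and Epha5 is lowest in the Ezh2 lists, with 13 to 15 peaks against 18 to 22 in GFP.

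Overexpression of Ezh2 against GFP asked how the active enzyme changed accessibility after crush. In this comparison 1 of the 9 genes, Epha5, was called in the peak number fit (limma on log2 of peak number scaled to list length, plus 1, over 14955 genes), beside 2.1% of all genes fitted, 1.17% higher and 0.929% lower. Epha5 (chr5:84054761-84417818), a receptor long linked to map formation by RGC axons, held 20, 18 and 22 peaks with GFP, 13, 15 and 15 with Ezh2 and 21 and 16 with Ezh2-Y726D. Every Ezh2 list lay below every other list. The scaled means were 20.8 ± 0.854 (SD, n = 3) in GFP and 13.9 ± 0.921 (n = 3) in Ezh2, a log2 difference of -0.55 (SE 0.11, adjusted p = 0.0381), or 0.681 times the GFP level. The call ended when any GFP or Ezh2 library was left out, with adjusted p = 0.0908, 0.0875 and 0.0915 without GFP replicates 1, 2 and 3 and 0.105, 0.0595 and 0.0986 without Ezh2 replicates 1, 2 and 3. It also ended without scaling (0.163), with lists of equal length (0.116) and with peaks of −log10 q of at least 5 (0.536, where the log2 difference was -0.27).

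Of the other 8 genes, the scaled peak number was lower in Ezh2 at 5 and higher at 3, and none passed the test. Over the 9 genes the median log2 difference was -0.16, beside -0.03 over all genes. The scaled numbers did not overlap between Ezh2 and GFP at 3 genes, Epha3, Epha5 and Epha10, where 20.4% of all genes fitted had no overlap. Epha10, a receptor without kinase activity, held 3 peaks in each GFP list and 4 in each of the other 5 lists, and its log2 difference from GFP was 0.24 (SE 0.10, adjusted p = 0.249) in Ezh2 and 0.27 (SE 0.11, adjusted p = 0.179) in Ezh2-Y726D. Without scaling, its peak numbers had no spread within any group, and Epha10 passed the test against GFP in both comparisons, in place of Epha5 and Epha6. The added Epha10 region was weak, as given below. Epha4 held 16, 17 and 14 peaks with GFP, 18, 16 and 14 with Ezh2 and 20 and 15 with Ezh2-Y726D, and the sign of its difference changed with the scaling. Epha7 held 8, 11 and 13 with GFP, 12, 13 and 12 with Ezh2 and 9 and 11 with Ezh2-Y726D. Groups overlapped at both genes between Ezh2 and GFP.

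The comparison of Ezh2-Y726D with GFP, which shares the GFP lists with the one before, asked what the protein did without its catalytic activity. Here 1 of 9 genes, Epha6, was called, beside 11.5% of all genes fitted, 2.57% higher and 8.97% lower. Epha6 (chr16:59641433-60610911) is graded across the mouse retina in RGCs and is the longest gene of the family. It held 18, 16 and 23 peaks with GFP, 22, 20 and 30 with Ezh2 and 33 and 31 with Ezh2-Y726D, so that both Ezh2-Y726D lists exceeded all others. The scaled means were 19.7 ± 1.91 (SD, n = 3) in GFP, 23.1 ± 4.15 (n = 3) in Ezh2 and 31.8 ± 2.12 (n = 2) in Ezh2-Y726D. Ezh2-Y726D was higher than GFP by 0.67 on the log2 scale (SE 0.14, adjusted p = 0.0132), or 1.59 times. Ezh2 differed from GFP by 0.21 (SE 0.12, adjusted p = 0.408). The call against GFP ended without Ezh2-Y726D replicate 1 (adjusted p = 0.0903), without scaling (0.123) and with lists of equal length (0.0855). Immune cell markers had fewer peaks in these same lists, as given above, and their part was not tested.

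Between Ezh2-Y726D and GFP, scaled peak numbers had no overlap at 4 genes, Epha2, Epha3, Epha6 and Epha10, beside 38.7% of all genes fitted. Epha3, known from the graded map of the chick retina, held 10, 9 and 14 peaks with GFP, 10, 7 and 10 with Ezh2 and 9 and 9 with Ezh2-Y726D, with log2 differences from GFP of -0.35 (SE 0.14, adjusted p = 0.217) in Ezh2 and -0.31 (SE 0.16, adjusted p = 0.263) in Ezh2-Y726D, the second of which was 0.00 with lists of equal length. Epha8 held 7, 11 and 12 with GFP, 9, 9 and 10 with Ezh2 and 8 and 8 with Ezh2-Y726D, and Epha1 5, 6 and 5, then 5, 5 and 5, then 5 and 4. Neither gene passed the test in any comparison over all 8 lists as deposited. Between Ezh2-Y726D and GFP, Epha1 was called lower with lists of equal length, in place of Epha6, and Epha8 was called lower without GFP replicate 1. The median log2 difference over the 9 genes was -0.13, beside -0.06 over all genes.

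Ezh2 compared with Ezh2-Y726D, which separates the active from the inactive form, gave calls at 2 of 9 genes, Epha2 and Epha6, both lower in Ezh2, beside 17.2% of all genes, 13% higher and 4.21% lower in Ezh2. Epha2 (chr4:141301221-141329384), best known from epithelia and vessels, held 5, 6 and 8 peaks with GFP, 5, 6 and 6 with Ezh2 and 8 and 9 with Ezh2-Y726D. After scaling, Ezh2 lay between 4.98 and 5.91 and Ezh2-Y726D at 8.07 and 8.79, without overlap. The log2 difference was -0.54 (SE 0.14, adjusted p = 0.0260), and that of Epha6 was -0.45 (SE 0.14, adjusted p = 0.0452). Scaled peak numbers had no overlap at 5 genes, Epha2, Epha5, Epha6, Epha7 and Epha8, beside 40.6% of all genes. The Epha2 call ended without Ezh2 replicate 1 (adjusted p = 0.0758) or 3 (0.0511) or Ezh2-Y726D replicate 1 (0.0867) or 2 (0.146), without scaling (0.139) and with the gene body alone (0.0946). The Epha6 call ended without GFP replicate 1 (0.0553) or 3 (0.0808), Ezh2 replicate 1 (0.103) or 2 (0.11) or Ezh2-Y726D replicate 1 (0.218) or 2 (0.1), and without scaling (0.29). It also ended without the filter on peak number (0.0733), with the gene body alone (0.0528), 2 groups in the fit (0.0998), lists of equal length (0.247) or −log10 q of at least 5 (0.131). Without Ezh2-Y726D replicate 2, Epha5 was the 1 gene called, lower in Ezh2.

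**Figure D3:**
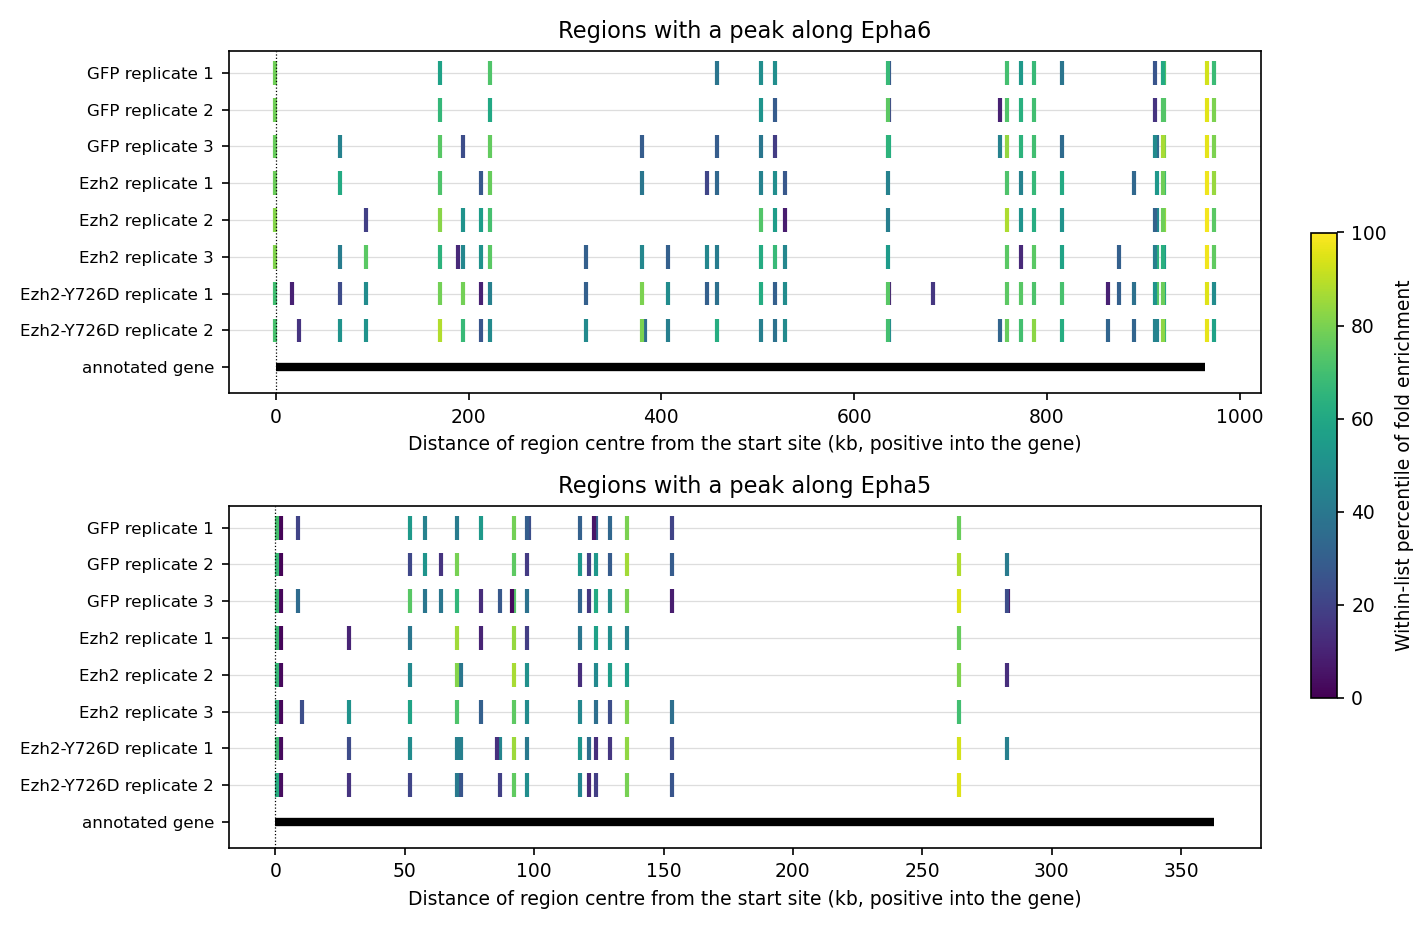
Regions with a peak along Epha6 (top) and Epha5 (bottom) by distance of the region's centre from the start site in kb (x axis), 1 row per list; each tick is a region with a peak, coloured by within-list percentile, and the black bar is the annotated gene downstream of the start site. In Epha6 the regions centred 94, 322 and 407 kb from the start site carry ticks in both Ezh2-Y726D lists and no GFP list, and in Epha5 24 of 27 regions lie within 160 kb of the start site.

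The additional Epha6 peaks were spread along the gene. Epha6 had 36 regions, 13 of them in all lists, and in 7 of the 36 both Ezh2-Y726D lists and no GFP list had a peak. Over all regions the share was 4.77%. Epha6 had been called for its peak number in these same lists, so its count of such regions adds no separate evidence. These 7 were centred 94, 213, 322, 407, 528, 864 and 890 kb from the start site. The regions centred at 213 kb (chr16:60391997-60392485) and 528 kb (chr16:60077039-60077454) had peaks in all Ezh2 lists too, at percentiles of 27.3, 55.5 and 50.6 and of 27.3, 7.96 and 46.3, so that only GFP lacked them. The region at 864 kb (chr16:59741637-59741957) was found in the Ezh2-Y726D lists alone, at percentiles of 9.23 and 32.4. The most accessible region of the Epha6 window, chr16:59638624-59639866, with a mean percentile of 96.2, lay over the start site of the neighbouring gene Arl6 and not over that of Epha6. In Epha5, 24 of 27 regions lay within 160 kb of the start site. The region with the highest mean percentile, 84.5, lay far downstream, centred 264 kb from it.

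By presence, 4 of 161 EphA regions (2.48%) had a peak in all Ezh2 and no GFP list, beside 2.72% of all regions, and 4 the reverse, beside 1.68%. Ezh2-Y726D had 13 regions (8.07%) that no GFP list had, beside 4.77% of all regions, and GFP 3 (1.86%) that no Ezh2-Y726D list had, beside 4.72%. Ezh2 had 2 regions (1.24%) absent from Ezh2-Y726D, beside 8.96%, and Ezh2-Y726D 9 (5.59%) absent from Ezh2, beside 6.14%. These counts were not tested, and their balance changed with the processing. With lists of equal length, the 13 and 3 became 10 and 6, and the 2 and 9 became 5 and 4. With peaks of −log10 q of at least 5, they became 5 and 4 and, between both Ezh2 forms, 4 and 3. For Ezh2 and GFP the 4 and 4 became 2 and 4, and then 0 and 2. Over all regions, the share of both directions together under these settings was 9.9% and then 8.86% for Ezh2-Y726D and GFP. For Ezh2 and GFP it was 4.86% and then 4.47%. Of the 13 regions of Ezh2-Y726D, 7 were in Epha6, 2 in Epha4, 2 in Epha5 and 1 each in Epha2 and Epha10. Counts rose where a library was left out, by construction, with fewer samples required: to 14 of either direction without GFP replicate 1 between Ezh2 and GFP, to 30 and 26 without Ezh2-Y726D replicate 1 and 2 between Ezh2-Y726D and GFP, and to 24 and 20 without those replicates between both Ezh2 forms.

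Some regions had a peak in every list of 1 group and in no other list. This takes 3 lists for GFP or Ezh2 and only 2 for Ezh2-Y726D. No EphA region was found in this way for Ezh2, and the share over all regions is not given here. The region chr5:84359468-84359737, inside Epha5 and 58 kb from its start site, had a peak in the 3 GFP lists, at percentiles of 44.3, 51.7 and 39.4, and in no other list. The same was seen in the flank of Epha8 (chr4:136923080-136923673), at percentiles of 23.3, 3.36 and 16.0. Ezh2 lists alone lacked the region chr16:63809888-63810312 in Epha3, which had percentiles of 13.8, 35.4 and 28.9 in GFP and 37.0 and 26.6 in Ezh2-Y726D lists, and chr16:59968530-59969301 in Epha6, with 26.5, 21.7 and 61.8 and with 9.23 and 47.3. Ezh2-Y726D lists alone lacked chr4:28902029-28902629 in Epha7, 89 kb from its start site, which had percentiles of 44.3, 35.4 and 51.9 in GFP and 53.5, 77.0 and 64.4 in Ezh2 lists. Peaks of Ezh2-Y726D lists alone lay in Epha4 (chr1:77420819-77421090, percentiles 60.5 and 23.0, and chr1:77447026-77447394, 19.1 and 14.0) and downstream of Epha2 (chr4:141335166-141335722, 22.9 and 26.6). The added Epha10 region (chr4:124893636-124894150) was weak, at percentiles of 1.33 to 11.6 in the 5 lists that had it, and overlapped 1700125G02Rik. Most of these percentiles were below the median of the EphA regions found in all lists.

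By rank, 4 of the 55 EphA regions with a peak in every list were called between Ezh2 and GFP, 2 higher and 2 lower (7.27%), beside 4.44% of all regions (1.59% higher and 2.84% lower). Between Ezh2-Y726D and GFP 6 were called, 1 higher and 5 lower (10.9%), beside 8.21% (3.55% and 4.65%). Between Ezh2 and Ezh2-Y726D 10 were called, 6 higher and 4 lower (18.2%), beside 14% (7% and 6.96%). The median differences over the 55 regions were 0.05, 0.01 and 0.10, beside 0.01, -0.01 and 0.02 over all regions fitted. In all, 12 regions at 7 of the 9 genes were called in at least 1 comparison, and none at Epha4 or Epha10. The share of all regions called in at least 1 comparison is not given here, so this count cannot be set against a background. Without GFP replicate 2 limma called 0 of 56 EphA regions between Ezh2 and GFP, with 11 at an unadjusted p under 0.05. The share of all regions fitted that was called then fell as well, from 4.44% to 1.30%. Fewer regions, at EphA genes and over all, were also called in both comparisons with Ezh2-Y726D when either of its lists was left out, which left 1 sample in that group.

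**Figure D4:**
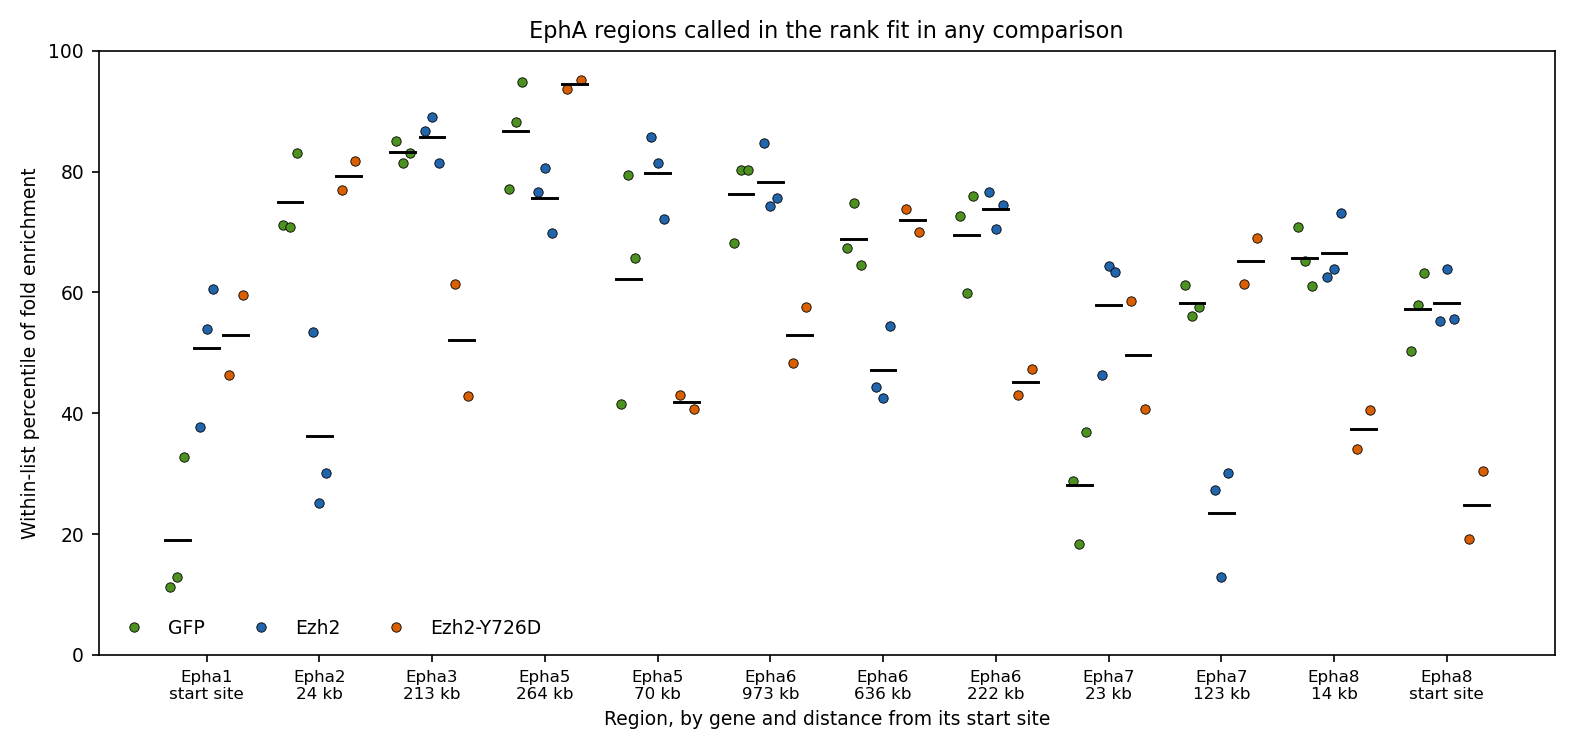
Within-list percentile of fold enrichment (y axis, 0 to 100) of the 12 EphA regions called in at least 1 comparison (x axis, by gene and distance of the region's centre from the start site); each point is 1 list, coloured by group, and black bars are group means. Ezh2 lists are lowest in Epha2 at 24 kb and Epha7 at 123 kb, and Ezh2-Y726D lists are lowest in Epha3 at 213 kb, Epha6 at 973 and 222 kb and both Epha8 regions.

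Regions inside Epha2 and Epha7 were lower in Ezh2 than in both other groups. In Epha2, the region chr4:141324351-141325677, 24 kb from the start site, had percentiles of 71.1, 70.8 and 83.0 with GFP, 53.5, 25.2 and 30.2 with Ezh2 and 76.9 and 81.7 with Ezh2-Y726D. It was the region of Epha2 with the highest mean percentile over all lists. Ezh2 was lower by -1.26 than GFP (SE 0.24, adjusted p = 0.0223) and by -1.37 than Ezh2-Y726D (SE 0.27, adjusted p = 0.00956), and Ezh2-Y726D and GFP differed by 0.11 (SE 0.27, adjusted p = 0.845). Epha7 (chr4:28813066-28967503), a receptor with roles in topographic mapping, showed the same order at chr4:28935421-28936074, 123 kb from its start site. There the percentiles were 61.2, 56.0 and 57.6 with GFP, 27.3, 12.9 and 30.2 with Ezh2 and 61.4 and 69.0 with Ezh2-Y726D. Ezh2 was lower by -1.05 than GFP (SE 0.19, adjusted p = 0.0189) and by -1.23 than Ezh2-Y726D (SE 0.21, adjusted p = 0.00568). In both genes no Ezh2 list overlapped another group. The Epha7 difference between both Ezh2 forms passed the test under all 13 alternatives that gave a value, the only EphA call that did. Adjusted p was 0.00901 to 0.0199 where each group kept at least 2 samples. The region had no value with lists of equal length, −log10 q of at least 5, or peaks required to fill part of their region. The call was therefore not tested there, whereas that of the Epha3 region given below had values under 16 alternatives. Against GFP the Epha7 call ended without GFP replicate 1 (0.0539) or 2 (0.0591). The Epha2 call against GFP ended without GFP replicate 2 (0.0605) or 3 (0.0718) or Ezh2 replicate 2 (0.0563) or 3 (0.0663). Between both Ezh2 forms the Epha2 call ended without Ezh2-Y726D replicate 2 (0.0691).

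A second Epha7 region moved the other way. At chr4:28835746-28836592, 23 kb from the start site, the percentiles were 28.9, 18.4 and 37.0 with GFP, 46.2, 64.4 and 63.4 with Ezh2 and 58.6 and 40.8 with Ezh2-Y726D. All lists with either Ezh2 form lay above the GFP lists. Ezh2 was higher than GFP by 0.86 (SE 0.21, adjusted p = 0.0452), and Ezh2-Y726D differed from GFP by 0.59 (SE 0.23, adjusted p = 0.145). The call ended without GFP replicate 1 (0.0957), 2 (0.152) or 3 (0.0869) or Ezh2 replicate 2 (0.114) or 3 (0.12), and with regions present in at least 6 lists (0.0646).

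In Epha3 and Epha6, regions were lower in Ezh2-Y726D than in the other groups. The Epha3 region chr16:63650539-63651526, 213 kb into the gene, had percentiles of 85.1, 81.5 and 83.0 with GFP, 86.7, 89.0 and 81.3 with Ezh2 and 61.4 and 42.8 with Ezh2-Y726D. Both Ezh2-Y726D lists lay below all others. The differences were -1.14 for Ezh2-Y726D against GFP (SE 0.22, adjusted p = 0.0157) and 1.25 for Ezh2 against Ezh2-Y726D (SE 0.22, adjusted p = 0.00643). Both ended without Ezh2-Y726D replicate 2 (0.12 and 0.0628) and held under the other 15 alternatives. Epha6, which had more peaks in Ezh2-Y726D, also had regions that ranked lower there. At chr16:60383120-60384059, 222 kb from its start site, percentiles were 72.6, 59.9 and 75.9 with GFP, 76.6, 70.4 and 74.4 with Ezh2 and 43.0 and 47.3 with Ezh2-Y726D, with differences of -0.80 against GFP (SE 0.19, adjusted p = 0.032) and 0.92 for Ezh2 against Ezh2-Y726D (SE 0.19, adjusted p = 0.0124). The flank region chr16:59631936-59633153, inside Arl6, had percentiles of 68.2, 80.2 and 80.3, of 84.7, 74.3 and 75.6 and of 48.3 and 57.5 in the same order, with differences of -0.83 (SE 0.22, adjusted p = 0.0492) and 0.88 (SE 0.22, adjusted p = 0.0279). In both, the Ezh2-Y726D lists lay below all others. The first of these Epha6 calls ended against GFP without GFP replicate 1 (0.0818) or 3 (0.073) and the second without GFP replicate 2 (0.122) or 3 (0.102) or Ezh2 replicate 2 (0.0581) or 3 (0.0577), the second against Ezh2 without Ezh2 replicate 1 (0.0718), and all 4 without Ezh2-Y726D replicate 1 (0.184, 0.269, 0.0954 and 0.185) or 2 (0.133, 0.135, 0.0686 and 0.0888). With 2 groups in the fit both calls against GFP ended (0.0542 and 0.0561).

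The remaining calls lay in Epha5 and Epha6 and concerned only Ezh2 against Ezh2-Y726D. The downstream Epha5 region, chr5:84152954-84153663, 264 kb from the start site, had percentiles of 77.1, 88.2 and 94.9 with GFP, 76.6, 80.5 and 69.8 with Ezh2 and 93.7 and 95.2 with Ezh2-Y726D. Ezh2 was lower than Ezh2-Y726D by -1.05 (SE 0.27, adjusted p = 0.0307), and GFP overlapped both. At chr5:84346548-84347688, 70 kb from the start site, the order turned: percentiles were 41.5, 79.5 and 65.6 with GFP, 85.8, 81.3 and 72.2 with Ezh2 and 43.0 and 40.6 with Ezh2-Y726D, and Ezh2 was higher by 1.26 (SE 0.33, adjusted p = 0.0325). In Epha6, chr16:59969630-59970325, 636 kb from the start site, had percentiles of 67.4, 74.8 and 64.5 with GFP, 44.4, 42.5 and 54.5 with Ezh2 and 73.8 and 70.1 with Ezh2-Y726D. Every Ezh2 list was lower than every other list there. The difference was -0.77 against Ezh2-Y726D (SE 0.20, adjusted p = 0.034) and -0.71 against GFP (SE 0.18, adjusted p = 0.0587). All 3 calls ended without Ezh2 replicate 1 (0.0606, 0.081 and 0.0888), Ezh2-Y726D replicate 1 (0.115, 0.141 and 0.173) or Ezh2-Y726D replicate 2 (0.151, 0.162 and 0.0974). The first ended without Ezh2 replicate 3 (0.0783), the second without Ezh2 replicate 2 (0.0694) or GFP replicate 3 (0.0534), and the third without Ezh2 replicate 2 (0.0952). The first also ended when ranked by −log10 p (0.0542), and the third with regions present in at least 6 lists (0.0516).

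Ligands, EphB receptors and downstream proteins of the pathway were counted in the same peak number fit. Of 34 listed genes 33 entered it. Between Ezh2 and GFP limma called 0 of them, beside 2.1% of all genes fitted, with 8 at an unadjusted p under 0.05 and a median log2 difference of -0.02. Rock2, a kinase that acts on the actin cytoskeleton in growth cone collapse, was the 1 gene called between Ezh2-Y726D and GFP, with 5, 7 and 6 peaks with GFP, 5, 5 and 5 with Ezh2 and 4 and 3 with Ezh2-Y726D and a log2 difference of -0.70 (SE 0.16, adjusted p = 0.0229). It stood beside 11.5% of all genes fitted, 8.97% of them lower. That call ended without GFP replicate 2 (0.057) or Ezh2-Y726D replicate 2 (0.164), without scaling (0.0698) and with lists of equal length (0.106). Between Ezh2 and Ezh2-Y726D 5 of the 33 genes were called, 3 higher and 2 lower in Ezh2, beside 17.2% of all genes, 13% higher and 4.21% lower.

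The ephrin-A ligand gene Efna5, a partner of the EphA receptors in the retinotopic map, held 28, 30 and 31 peaks with GFP, 27, 28 and 29 with Ezh2 and 34 and 40 with Ezh2-Y726D. It was lower in Ezh2 than in Ezh2-Y726D by -0.42 (SE 0.08, adjusted p = 0.00848), and both Ezh2-Y726D lists exceeded all others, as at Epha6. The receptor gene Ephb1, required for the uncrossed projection of RGC axons, was lower by -0.48 (SE 0.13, adjusted p = 0.0286), with 24, 26 and 23 peaks in Ezh2 and 35 and 32 in Ezh2-Y726D lists. Higher in Ezh2 were Sipa1l1, a Rap regulator, by 0.46 (SE 0.10, adjusted p = 0.0132), Fyn, a Src family kinase, by 0.28 (SE 0.08, adjusted p = 0.0308), and the phosphatase gene Ptpn11, by 0.44 (SE 0.11, adjusted p = 0.0254). Fyn and Ptpn11 also act in immune cells, whose marker genes held more peaks in Ezh2 than in Ezh2-Y726D lists, and the part of those cells was not tested. Efna5 lost its call without Ezh2-Y726D replicate 2 (0.0811), with lists of equal length (0.0756) or with −log10 q of at least 5 (0.0863). Sipa1l1 lost it without Ezh2-Y726D replicate 1 (0.0884), without scaling (0.158) and with −log10 q of at least 5 (0.668, where the log2 difference was 0.10). Ephb1 lost its call without GFP replicate 3 (0.0692), Ezh2 replicate 1 (0.0553) or 3 (0.0722), or Ezh2-Y726D replicate 1 (0.168) or 2 (0.0594), without scaling (0.121) and with lists of equal length (0.0751). Fyn lost it without Ezh2 replicate 1 (0.0586), 2 (0.0653) or 3 (0.0733) or Ezh2-Y726D replicate 1 (0.26), without scaling (0.166) and with 2 groups in the fit (0.0725). Ptpn11 lost it without Ezh2 replicate 2 (0.0768) or 3 (0.0668) or Ezh2-Y726D replicate 1 (0.102) or 2 (0.125), without scaling (0.0753), with the gene body alone (0.0852), with 2 groups in the fit (0.0612), with lists of equal length (0.205) and with −log10 q of at least 5 (0.258, where the log2 difference was 0.25). Of 271 regions at the pathway genes with a peak in every list, the rank fit called 10, 14 and 29 in the 3 comparisons, or 3.69%, 5.17% and 10.7%, beside 4.44%, 8.21% and 14% of all regions fitted.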

How the data were processed

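Accessible chromatin was measured by ATAC-seq in 8 samples, grouped by their titles. Per the labels, the submitters' processing notes name cutadapt, Bowtie2, SAMtools, Picard, MACS2, deepTools and the build GRCm38, with no versions or parameters. Whether cut sites were shifted for the transposase is not given in the sources used here. The authors deposited 1 narrowPeak list per sample. Its fold column is the ratio of the summit pileup to local background, its p- and q-value columns are deposited as −log10 values, its deposited score was not used, and the deposited summit is a distance from the peak's start. The lowest −log10 q per list was 1.31 to 1.38. Without deposited read numbers, no count model or interval for depth was possible.

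Peaks sharing at least 1 bp were merged (Python 3.11.15, pandas 2.3.3), and genes and promoters came from RefSeq tables of GRCm38.p6, without exons. A percentile is the rank of the fold within its list. limma 3.58.1 (R 4.3.3) was fitted to all 8 samples without block, over all regions present in 8 lists (normal scores of ranks), and, with a trend, over genes with a mean of at least 2 peaks (1 peak added before the log2). Calls had a Benjamini-Hochberg adjusted p under 0.05 over all features fitted. The spread of the 2 Ezh2-Y726D samples, or of 1 where the other was left out, was assumed to resemble that of the other groups. Labels do not say that samples came from separate animals, so p-values measure the spread between these samples, which may be technical. Fits and interval operations were tested on simulated data. Marker genes counted peaks within 1 kb.

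Per gene, regions at the start site, with the highest mean percentile, called by rank or with peaks in 1 group alone were eligible to be named, up to 3 per gene and comparison. Members, lists and tests were chosen with earlier results of these data known. Alternatives changed the ranking column, list length, q threshold, overlap, window, scaling, filter, pseudocount, samples and block. Sequences of peaks were not used here for want of a genome.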

Additional observations from a re-analysis of the deposited data

How the results depend on the processing

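The lists hold peaks that passed a threshold in 1 library, so a missing peak is not a measured absence, and the rank fit used only regions in all 8 lists. No result changed direction under any alternative with a call on it: of 301 values for the named EphA regions 213 stayed past the threshold and 88 did not, and of 72 for the named EphA genes 38 did and 34 did not, and for the pathway genes 71 of 108 did. The cause of the changes below was not tested unless stated.

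Between Ezh2 and GFP, the rank fit called 4 regions. It gave 2 with regions in at least 6 lists and 2 with −log10 q of at least 5. Where peaks were required to fill 0.5 or more of their region, 30 regions were left to fit. Of these it called 0, with 4 at an unadjusted p under 0.05. Over all regions fitted, these 3 settings called 4.75%, 3.94% and 1.95%, beside 4.44% in the main fit. Regions of 1 group alone fell from 8 to 2 with −log10 q of at least 5, where the share over all regions was 4.47%. The peak number fit called 1 gene, and 0 with lists of equal length or −log10 q of at least 5. Without scaling, it called 295 genes higher and 122 lower over all genes, beside 175 and 139 with scaling. Between Ezh2-Y726D and GFP, 16 regions of 1 group alone became 9 with −log10 q of at least 5, where the share over all regions was 8.86%. Between Ezh2 and Ezh2-Y726D, 10 regions called became 5 with the 0.5 requirement, and 11 of 1 group alone became 7 with −log10 q of at least 5. The 2 genes called there became 0 without scaling or with the gene body alone, and 1 without the filter, with 2 groups in the fit, with lists of equal length or with −log10 q of at least 5.

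Leaving out each library in turn gave 0 to 4, 1 to 6 and 3 to 11 regions called in the 3 comparisons, that is, for the active and then the inactive form against GFP, and for both forms against each other. Regions of 1 group alone numbered 9 to 14, 19 to 30 and 12 to 24, and genes called 0 to 1, 0 to 2 and 0 to 2. The difference in total peaks ranged from -5.83 to 5.17, from 6 to 17.5 and from -17.3 to -7.33. With only a GFP or Ezh2 library left out, the EphA regions called were 0 to 4, 2 to 6 and 6 to 11. The lowest counts in both comparisons with Ezh2-Y726D came without 1 of its libraries, where fewer regions were also called over all. Over all regions fitted, leaving out a GFP or Ezh2 library gave shares called of 1.30% to 2.95%, 4.69% to 7.84% and 10.1% to 13.2%. With all 8 lists these shares were 4.44%, 8.21% and 14%.

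Whether replicate numbers pair the samples was not settled. Deviations of samples with the same title number correlated at -0.015 to 0.048 over regions (mean 0.014) and at -0.008 to 0.080 over genes (mean 0.023). Those with different numbers correlated at -0.048 to 0.046 (mean -0.007) and at -0.063 to 0.018 (mean -0.012). In both, 6 of 8 samples correlated best with their own number. Deviations of the 2 Ezh2-Y726D samples mirror each other, so this check cannot decide. With the replicate block by title number, Ezh2 against GFP gave 4 regions and 0 genes, Ezh2-Y726D against GFP 5 and 1, and Ezh2 against Ezh2-Y726D 8 and 2. Over all regions fitted, 3.17%, 6.92% and 11.6% were called. Over all genes, 1 (0.007%) was called for Ezh2 against GFP, beside 314 without a block, and 8.73% for Ezh2-Y726D against GFP. With the replicate block by the number in the peak names, which differs for Ezh2-Y726D, the values were 3 and 0, 3 and 1, and 5 and 0. Of the regions called without a block, 3 of 4, 3 of 6 and 7 of 10 were called again by title number and 3, 3 and 5 by peak name number. Called by neither block were Epha5 between Ezh2 and GFP (adjusted p = 0.0894 and 0.0777), the Epha7 region 23 kb from its start site (0.0796 and 0.0804), the Epha8 region inside the gene against GFP (0.0611 and 0.0827), the Epha6 region at 222 kb against GFP (0.061 and 0.0687), the Epha6 flank region against GFP (0.0901 and 0.117) and Ezh2 (0.0609 and 0.0771), the Epha6 region at 636 kb (0.0819 and 0.0782), the Epha5 region at 264 kb (0.0523 and 0.0882) and Ptpn11 (0.0745 and 0.0517). By title number alone the calls of Rock2 (0.0632), Ephb1 (0.0916) and Fyn (0.0687) ended. By peak name number alone those of Epha2 (0.0548) and Epha6 (0.0814) between both Ezh2 forms, of the Epha5 region at 70 kb (0.0521) and of the Epha8 region inside the gene against Ezh2 (0.06) ended.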
